A study of Mus musculus with 6 samples.

Results

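The interferon-stimulated genes described here were a list of 41 genes that cells switch on when interferon reaches them, read in 3 acinar mammary tumors and 3 control mammary glands of mice. They were matched to the array by gene symbol. A gene was kept where the array's annotation gave a probe set, the group of short oligonucleotides that reads 1 transcript, that symbol and no other. Of the 41 genes, 39 had such a probe set and 37 were bright enough to be tested, out of 12518 genes tested on the array. *Isg15* was read only by a probe set that carries several symbols, *Ifi44* was not listed in the annotation, and *Oas3* and *Mx2* stayed under the filter on low signals. Of the 37 genes, 31 are known mainly as targets of the type I interferons and 6 mainly as targets of interferon gamma.

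The tumors came from K14-cre; ApcCKO/+ mice, in which 1 copy of the tumor suppressor *Apc* is conditional and the Cre recombinase is driven by the keratin 14 promoter, active in mammary progenitor cells. All of the tumors carried the recombined *Apc* Δ580 allele and a truncating mutation in the other allele, and they were taken for their acinar histology. The control glands came from age-matched mice without *cre*, and neither their *Apc* genotype nor their exact age was stated in the sources used. The tumor mice were of mixed C57BL/6, 129/S and FVB background, and the background of the control mice was not stated in the sources used. The samples of a group are labelled biological replicates, and where they did not come from separate animals the p-values measure only the spread between these samples.

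Type I interferons bind the receptor *Ifnar1*/*Ifnar2*, whose kinases *Jak1* and *Tyk2* activate *Stat2*. With *Irf9* it takes part in the factor ISGF3, which binds the interferon-stimulated response element (ISRE) in promoters. Interferon gamma acts through *Ifngr1*/*Ifngr2*, *Jak1* and *Jak2* on promoters with the gamma-activated site (GAS), and it induces *Irf1* and the large GTPases. The products of these genes sense foreign RNA and DNA, degrade RNA, block translation and modify proteins with the ubiquitin-like ISG15. Many genes answer to both types of interferon, so the classes are a working division.

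The letters these factors bind were present in many of the promoters. RefSeq promoters of 300 bases, 250 before and 50 after a transcription start in GRCm38.p6, were held for 31 of the 41 genes, with 38 promoters in all. The ISRE core, searched as GAAANNGAAA on both strands, lay in 17 of these 38 promoters (44.7%) and in 1131 of all 32851 promoters of the table (3.44%). The GAS, searched as TTCNNNGAA, lay in 8 of the 38 (21.1%) and in 2726 of all promoters (8.3%). The 2 motifs can overlap, as they do in *Bst2*. The following windows are shown because they belong to genes that the results turn on. They are written 5′ to 3′ along the gene's strand, and capitals mark the ISRE core or the GAS. Where matches of the same motif overlapped, only the first was counted and marked. The rest of a later ISRE core match stays in lower case, as in *Bst2* and *Irgm1*.
Oas1a, GAS, minus strand, chr5:120907603-120907635: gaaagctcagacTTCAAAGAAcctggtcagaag
Ifit1, ISRE core at 2 places, plus strand, chr19:34640773-34640825: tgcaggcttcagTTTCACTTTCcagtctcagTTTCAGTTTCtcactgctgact
Bst2, GAS and ISRE core overlapping, minus strand, chr8:71537581-71537620: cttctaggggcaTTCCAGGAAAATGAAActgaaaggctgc
Rsad2, ISRE core, minus strand, chr12:26456551-26456584: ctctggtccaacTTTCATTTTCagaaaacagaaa
Irf1, GAS, plus strand, chr11:53769912-53769944: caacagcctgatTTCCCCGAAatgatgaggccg
Gbp2, ISRE core, plus strand, chr3:142620592-142620625: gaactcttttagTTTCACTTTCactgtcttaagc
Igtp, GAS and ISRE core, plus strand, chr11:58199499-58199543: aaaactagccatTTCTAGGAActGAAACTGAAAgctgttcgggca
Irgm1, ISRE core, minus strand, chr11:48871429-48871462: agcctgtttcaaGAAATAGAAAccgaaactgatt

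These windows lie upstream of the annotated starts, at 9 to 148 bases. *Oas1a* also holds an ISRE core close to its start. The 8 windows include genes that rose in tumors (*Oas1a*, *Ifit1*, *Bst2*), genes that fell (*Irf1*, *Gbp2*) and genes that did not pass the test (*Rsad2*, *Igtp*, *Irgm1*). By gene, the ISRE core was found in 4 of 9 genes called higher (44.4%), in 1 of 2 called lower and in 9 of 17 not called (52.9%), against 3.99% of all genes with a promoter in the table. The GAS was found in 4 of 9 genes called higher (44.4%), in 1 of 2 called lower and in 3 of 17 not called (17.6%), against 9.55% of all genes. These splits by call were not tested. The ISRE core was found in 12 of 26 genes of the type I class (46.2%) and 4 of 5 of the interferon gamma class (80%). A match is a run of letters and not a shown site of binding.

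**Figure D1:**
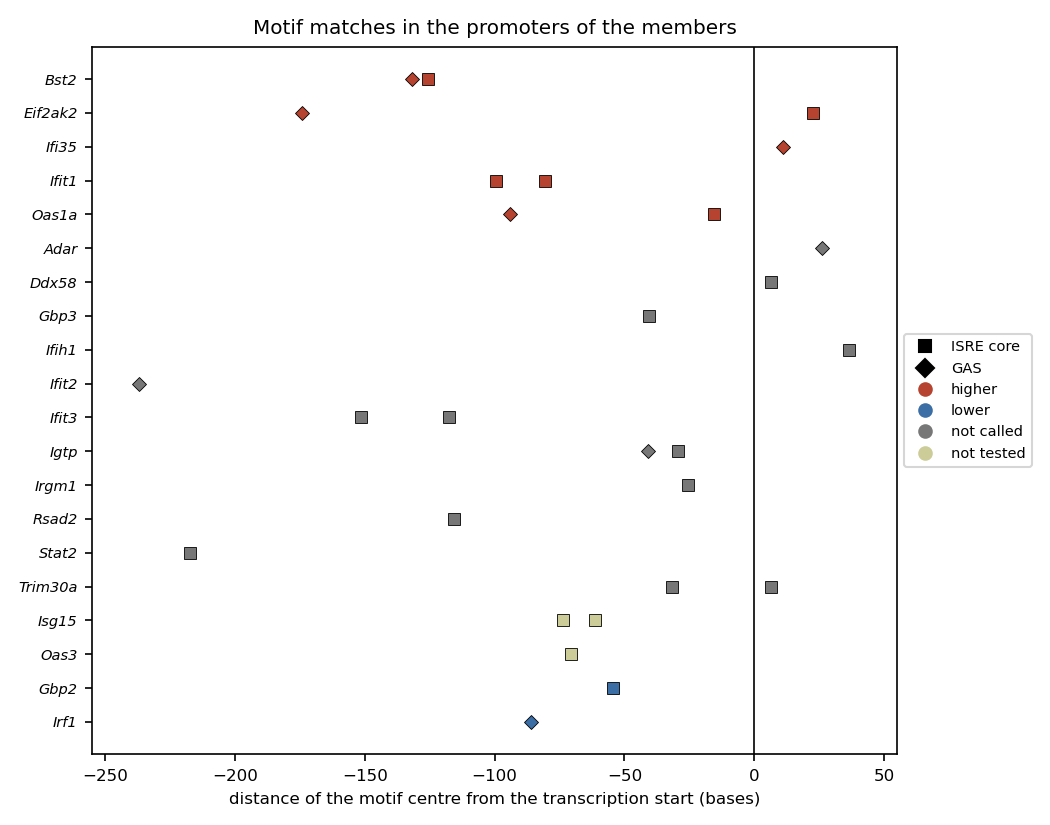
Position of each ISRE core (squares) and GAS (diamonds) in the promoters of the members, as distance in bases from the transcription start, where negative values lie upstream; colors give the call of the gene between tumors and control glands. Genes called higher, called lower and not called all appear among the 20 genes with a match.

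Signals were made by the authors with MAS 5.0 and scaled to 500 on each array, so that levels of 1 probe set can be compared between samples but not between genes. In the following, a gene was called where its adjusted p in limma was under 0.05, with p-values adjusted over all 12518 genes, and differences are log2 signal in tumors minus control glands after signals under 50 were set to 50. Over all genes, 16.3% were called higher in tumors and 16.8% lower, and the median difference was 0.07. With array medians made equal these shares were 24.2% and 13.3%, and the median was 0.31. Values are listed in the order of replicates 1, 2 and 3.

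The arrays within a group were not alike in tissue content. Markers of skeletal muscle were highest in control replicate 2 and tumor replicate 1 of their groups, with *Ckm*, muscle creatine kinase, at 499, 25224 and 6931 in the control glands and at 4117, 305 and 134 in the tumors. *Epcam*, an epithelial marker, was lowest in control replicate 2, at 2858, 1058 and 3486 in the control glands and at 10002, 14862 and 11890.4 in the tumors. The interferon-stimulated genes were low in these same samples. Control replicate 2 was the lowest control gland for 33 of 37 members (44% of all genes), and tumor replicate 1 the lowest tumor for 26 of 37 (29.3% of all genes). Control replicate 1 was the highest control gland for 25 of 37 (35.4% of all genes), and tumor replicate 2 the highest tumor for 22 of 37 (30.2%). Summed signals of 5 leukocyte markers were 25982, 7440 and 10306 in the control glands and 3413, 3961 and 2240 in the tumors. Their part in the signals of the members was not tested. The signal of *Apc*, 1922, 2077 and 2149 in the control glands and 1923, 1526 and 2006 in the tumors, is no check of the labels, since its probes were not placed relative to the deleted exon.

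In tumors, a part of the type I targets rose and the interferon gamma targets *Irf1* and *Gbp2* fell. Of the 37 genes, 12 were called higher (32.4%, against 16.3% of all genes), 2 lower (5.41%, against 16.8%) and 23 did not pass. The median difference was 0.60, from -0.97 for *Gbp2* to 2.97 for *Oas1a*. All 12 called higher were of the type I class, which held 31 of the 37 genes. In that class 19 others did not pass and the median was 0.82. Differences were positive for 24 of these 31 genes and for 3 of the 6 interferon gamma targets. The classes were chosen with earlier results of these data known. In the interferon gamma class 2 of 6 were called lower, 4 did not pass and the median was -0.12, which turned to 0.11 at equal array medians, to 0.11 without probe sets that have a letter before the final _at, which left *Irf1* and *Gbp3* out, to 0.01 without control replicate 3 and to 0.06 without tumor replicate 1. The difference between the classes was not tested. For 14 members the lowest tumor was above the highest control gland (27.1% of all genes), for 3 the highest tumor was below the lowest control gland (23.1% of all genes), and the groups overlapped for 20.

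With 1 array left out and the probe sets kept, the count of members called higher was lowest without tumor replicate 2. It was 7 there (11.3% of all genes) and at most 12, without tumor replicate 1 (13.2% of all genes). In the other settings it was lowest at 5, in the t-test of the study's methods (5.47% of all genes). It was highest at 17, with equal array medians (24.2% of all genes). Without control replicate 2 and tumor replicate 1 together, limma called 12 higher (10.4% of all genes) and 0 lower (14.5% of all genes). Of these 12, 10 were among the 12 above. In RNA from whole tissue, fewer cells of a type and less RNA per cell cannot be told apart.

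**Figure D2:**
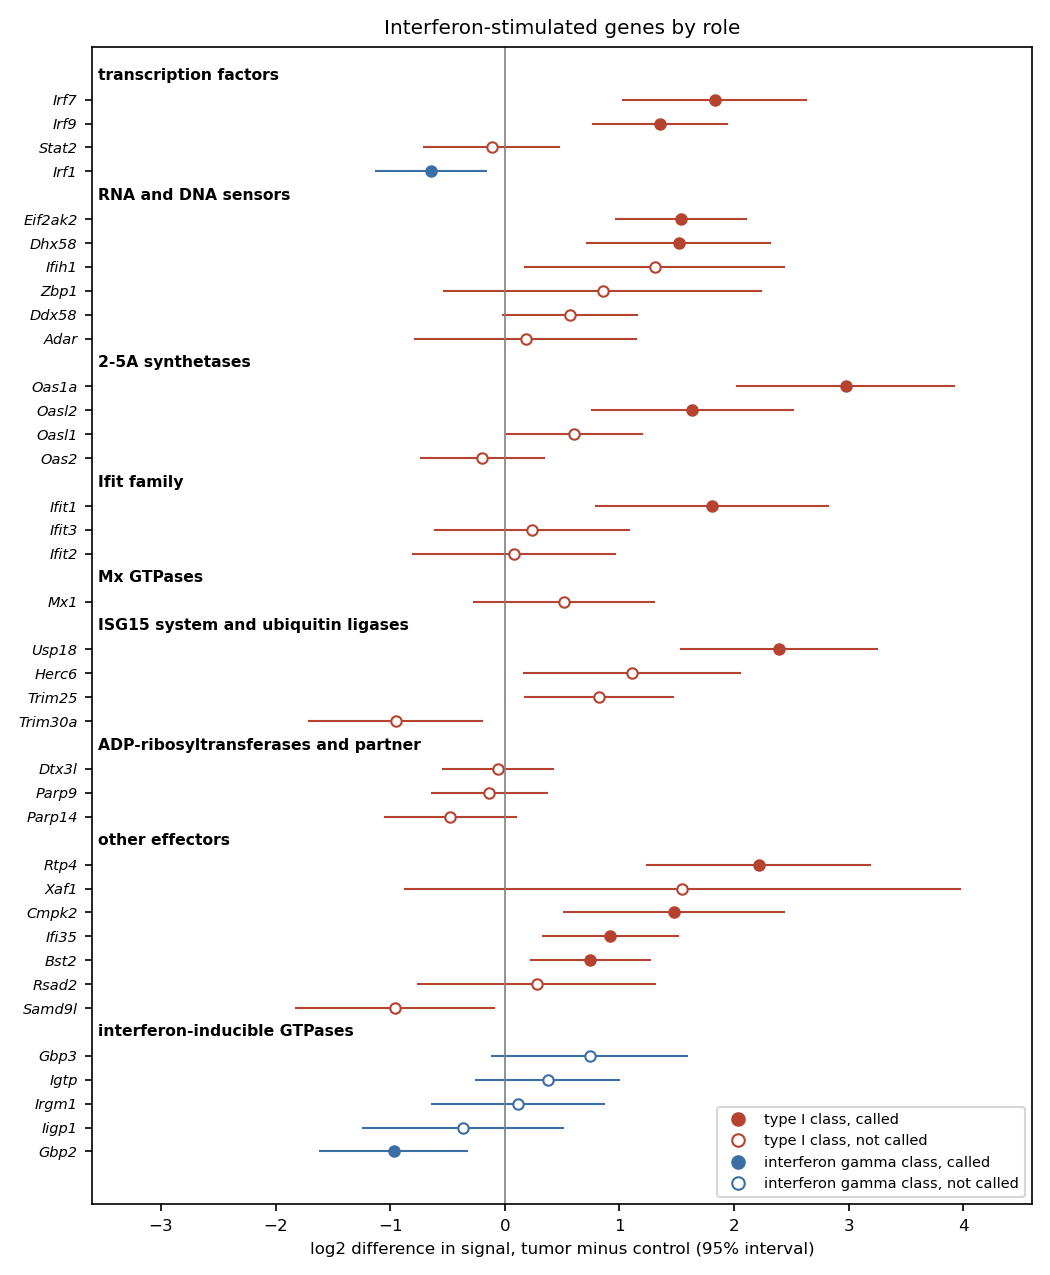
Difference of each tested member in log2 signal, tumor minus control, with its 95% interval from limma, grouped by role. Filled points passed the test; the called type I genes lie between 0.75 and 2.97, and *Irf1* and *Gbp2* lie at -0.64 and -0.97.

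Among the transcription factors, *Irf7* and *Irf9* rose, *Irf1* fell and *Stat2* did not pass. *Irf7*, the factor that amplifies the production of type I interferon, was at 392, 206 and 351 in the control glands and at 750.5, 1249 and 1359 in the tumors. The groups did not overlap, and the lowest tumor was replicate 1. The difference was 1.83 (SE 0.34, adjusted p = 0.00697), or 3.55-fold. *Irf9*, the DNA-binding part of ISGF3, was at 792, 493 and 657 in the control glands and at 1388, 1817 and 1704 in the tumors, again without overlap, with a difference of 1.35 (SE 0.25, adjusted p = 0.00662). Its call held in every alternative setting in which it was measured, among them each array left out in turn.

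*Stat2*, the partner of *Irf9* in ISGF3, was at 219, 178 and 226 in the control glands and at 163, 167 and 256 in the tumors. The groups overlapped, and the difference was -0.12 (adjusted p = 0.754) with a 95% interval of -0.71 to 0.48. *Irf1*, a factor induced by interferon gamma and by inflammatory signals, was at 1651, 1324 and 1733 in the control glands and at 965, 1065 and 968 in the tumors. Every tumor was below every control gland, and the difference was -0.64 (SE 0.21, adjusted p = 0.0481). That call lay close to the threshold and was lost without any 1 of control replicates 1 and 3 (adjusted p = 0.127 and 0.154) or tumor replicates 1, 2 and 3 (0.102, 0.0782 and 0.105), at equal array medians (0.185) and with a floor of 16 (0.0503).

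Sensors of foreign nucleic acid had a positive difference in all 6 cases, as did 6663 of all 12518 genes. Of the 6 sensors 2 were called higher, against 16.3% of all genes. *Eif2ak2*, the kinase PKR that stops translation on binding double-stranded RNA, was at 265, 169.5 and 237 in the control glands and at 673, 695 and 560 in the tumors. All tumors exceeded all control glands, and the difference was 1.54 (SE 0.24, adjusted p = 0.0036). A second probe set of the gene also passed, at 0.92. The remaining tested probe set of *Eif2ak2* did not pass, at 0.68 (adjusted p over probe sets = 0.123). There the groups overlapped, at 284.7, 190.5 and 306.1 in control glands against 304.7, 460.1 and 483.4 in tumors. *Dhx58*, the helicase LGP2, was at 111, 47.5 and 53.2 in control glands against 159.5, 202 and 214 in tumors, with control replicate 2 under 50. The difference was 1.52 (SE 0.34, adjusted p = 0.0141). The call of *Eif2ak2* held without any 1 array, and without tumor replicate 2 its difference was 1.48 (adjusted p = 0.0172). Where the brightest probe set was also picked again without that tumor, the second one stood for the gene, and its 0.92 did not pass (adjusted p = 0.0645). The call of *Dhx58* was lost without control replicate 3 (adjusted p = 0.0536) and with no filter (0.0554).

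*Ifih1*, the sensor MDA5, was at 1433, 879 and 1374 in the control glands and at 1369, 4108 and 4659.5 in the tumors. Tumor replicates 2 and 3 lay far above the control glands and tumor replicate 1 lay among them. The difference was 1.31 (adjusted p = 0.0736), and without tumor replicate 1 it was called (adjusted p = 0.00724). *Ddx58*, the sensor RIG-I, was at 1064, 759 and 777 in control glands against 1524, 1021 and 1309 in tumors, with a difference of 0.57 (adjusted p = 0.12). The DNA sensor *Zbp1* and the RNA-editing enzyme *Adar* differed by 0.86 (adjusted p = 0.302) and 0.18 (adjusted p = 0.762). Without control replicate 2 the difference of *Adar* was -0.27. Another probe set of *Adar* was higher in all tumors, with control glands at 394, 302 and 295 and tumors at 661, 538 and 612, a difference of 0.88 (adjusted p over probe sets = 0.025).

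The oligoadenylate synthetases make the messenger that activates RNase L. *Oas1a* had the largest difference of all members. It was at 678, 375 and 475 in the control glands and at 2158, 5086 and 5329.6 in the tumors, so that even the lowest tumor was above the highest control gland. The difference was 2.97 (SE 0.41, adjusted p = 0.00205), or 7.85-fold. *Oasl2*, a relative of the enzymes with a ubiquitin-like tail, was at 434, 159 and 349 in control glands against 837, 988 and 877 in tumors, a difference of 1.64 (SE 0.38, adjusted p = 0.0152), lost without tumor replicate 2 (adjusted p = 0.0537) and with no filter (0.063).

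*Oasl1*, which restrains translation of *Irf7*, was at 253, 152 and 161 in the control glands and at 289, 275 and 272 in the tumors. Its groups did not overlap, yet it did not pass, at 0.60 (adjusted p = 0.104); without control replicate 1 it passed (0.0427). *Oas2*, another of the enzymes, lay at 328, 215 and 277 in control glands against 221, 251 and 234 in tumors, with overlapping groups and a difference of -0.20 (adjusted p = 0.542). *Oas3* was not tested, and its signals of 20.7, 12.8 and 15.1 in control glands and of 28.2, 37.9 and 73.6 in tumors lay under 50 in all but tumor replicate 3. Near-identical copies of *Oas1a* exist in the mouse, so its probe set may read several of them.

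The Ifit proteins bind the ends of foreign RNA. *Ifit1* rose, from 387, 161 and 199 in control glands to 500, 1196 and 884 in tumors. The groups did not overlap, although control replicate 1 came close to tumor replicate 1. The difference was 1.81 (SE 0.43, adjusted p = 0.0177), and it was lost without control replicates 2 or 3 (adjusted p = 0.0535 and 0.0619), without tumor replicates 2 or 3 (0.0605 and 0.0543) and with no filter (0.0756). Its neighbors on chromosome 19 did not pass: *Ifit2* was at 505, 282 and 479.5 in control glands against 361, 705 and 316 in tumors, a difference of 0.08 (adjusted p = 0.89). *Ifit3* was at 848, 506 and 655 in control glands against 475, 865 and 1121 in tumors, a difference of 0.24 (adjusted p = 0.647). Both overlapped between the groups. *Ifit3* has a close copy that its probe set may also read.

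The Mx proteins are GTPases that block viral replication. *Mx1* was at 185, 78.9 and 99.5 in the control glands and at 154, 188 and 147 in the tumors, a difference of 0.52 (adjusted p = 0.272). *Mx2* was under the filter, at 14.9, 13 and 19.7 in control glands against 39.6, 23.8 and 362 in tumors, where a single tumor, replicate 3, was bright.

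In the ISG15 system, *Usp18* rose most. It is the protease that removes ISG15 from proteins and damps the type I receptor. It was at 261, 156 and 273 in the control glands and at 792, 1797 and 1134 in the tumors, with tumor replicate 2 the highest and no overlap. The difference was 2.39 (SE 0.36, adjusted p = 0.00314), or 5.25-fold. *Herc6*, the ligase for ISG15 in mice, was at 380.2, 152 and 299 in control glands against 377, 692 and 662 in tumors. Tumor replicate 1 lay just under control replicate 1, and the difference of 1.11 (adjusted p = 0.0706) did not pass. Without that tumor it did not pass either (0.0505), but it passed with quantile normalization (0.0398) and at equal array medians (0.0219). A second probe set of *Herc6* differed by only 0.15 (adjusted p over probe sets = 0.74). The mean over its probe sets differed by 0.63 (adjusted p = 0.153). *Trim25*, the ligase that activates RIG-I, was at 2318, 1752 and 2152 in control glands against 2819, 3358 and 5089 in tumors, all tumors above all control glands. Its difference of 0.82 (adjusted p = 0.056) passed in 6 alternative settings, among them without tumor replicate 1 (0.043).

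*Trim30a*, an inhibitor of inflammatory signaling, went against the rest of its group. It was at 1824, 1328 and 943 in the control glands and at 784, 815 and 493 in the tumors, every tumor below every control gland. The difference was -0.95 (adjusted p = 0.0572), short of the threshold, and it passed without control replicate 3 (0.0488). *Parp9*, *Dtx3l* and *Parp14*, which add ADP-ribose or ubiquitin to proteins and work as partners, differed by -0.13, -0.06 and -0.48, and none passed. At equal array medians *Parp9* and *Dtx3l* were at 0.10 and 0.17.

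Of the other effectors, 4 of 7 tested were called higher, against 16.3% of all genes. *Rtp4*, a chaperone of receptors, was at 1578, 618 and 795 in the control glands and at 3068, 6358 and 3973 in the tumors. Tumor replicate 2 was the highest, and the groups did not overlap. The difference was 2.21 (SE 0.42, adjusted p = 0.00713), or 4.64-fold. *Cmpk2*, a mitochondrial nucleotide kinase, was at 486, 179.8 and 527 in control glands against 1005, 1033 and 954 in tumors. The tumors lay close together and control replicate 2 stood far under the other control glands. The difference was 1.48 (SE 0.41, adjusted p = 0.0303), lost without tumor replicates 1, 2 or 3 (adjusted p = 0.0705, 0.0858 and 0.0709) and with no filter (0.105). A second probe set of *Cmpk2* differed by 1.22 and did not pass (adjusted p over probe sets = 0.106). Its groups overlapped, at 22.5, 15.9 and 181 in control glands against 147, 220 and 177 in tumors.

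*Bst2*, the membrane protein tetherin, rose less, from 469.9, 402 and 373 in control glands to 691, 820.3 and 585 in tumors. The groups did not overlap. Its difference of 0.75 (SE 0.22, adjusted p = 0.0381) was lost without control replicates 1, 2 or 3 (0.0592, 0.0842 and 0.125) and tumor replicates 1 or 2 (0.0783 and 0.101). *Ifi35* differed by 0.92 (SE 0.25, adjusted p = 0.0286), at 3117, 3093 and 3236 in the control glands and at 4314, 6753 and 7233 in the tumors. Its probe sets did not read alike, since another one, with control glands at 869, 599 and 743 and tumors at 610, 791 and 880.4, differed by 0.04. The probe set used ends in _s_at, which marks probes shared between genes. Without probe sets ending in _s_at or _x_at the other one stood for *Ifi35*, and no call was made (adjusted p = 0.903). The call was also lost without control replicates 1, 2 or 3 (0.0721, 0.0671 and 0.0784) and tumor replicates 2 or 3 (0.0833 and 0.0813), and with no filter (0.0549).

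*Samd9l*, a restrictor of translation, lay against its group, at 2728, 1954 and 2077 in the control glands and at 966, 2004 and 781 in the tumors. Tumor replicate 2 lay among the control glands and the other two tumors below them. The difference was -0.96 (adjusted p = 0.0849), and it passed without tumor replicate 2 (0.0175). *Rsad2*, the antiviral enzyme viperin and a neighbor of *Cmpk2* on chromosome 12, was at 2400.3, 1003 and 1074 in control glands against 1010.5, 1969.5 and 2312 in tumors, with a difference of 0.28 (adjusted p = 0.661). *Xaf1*, a promoter of cell death, had a difference of 1.55 (SE 1.04, adjusted p = 0.285), and its signals were 814, 50.4 and 837 in control glands against 647, 931 and 1427 in tumors, with control replicate 2 far under all others. Its second probe set ordered the samples otherwise, with that same control gland at 1396 and the other control glands at 122 and 95.2.

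**Figure D3:**
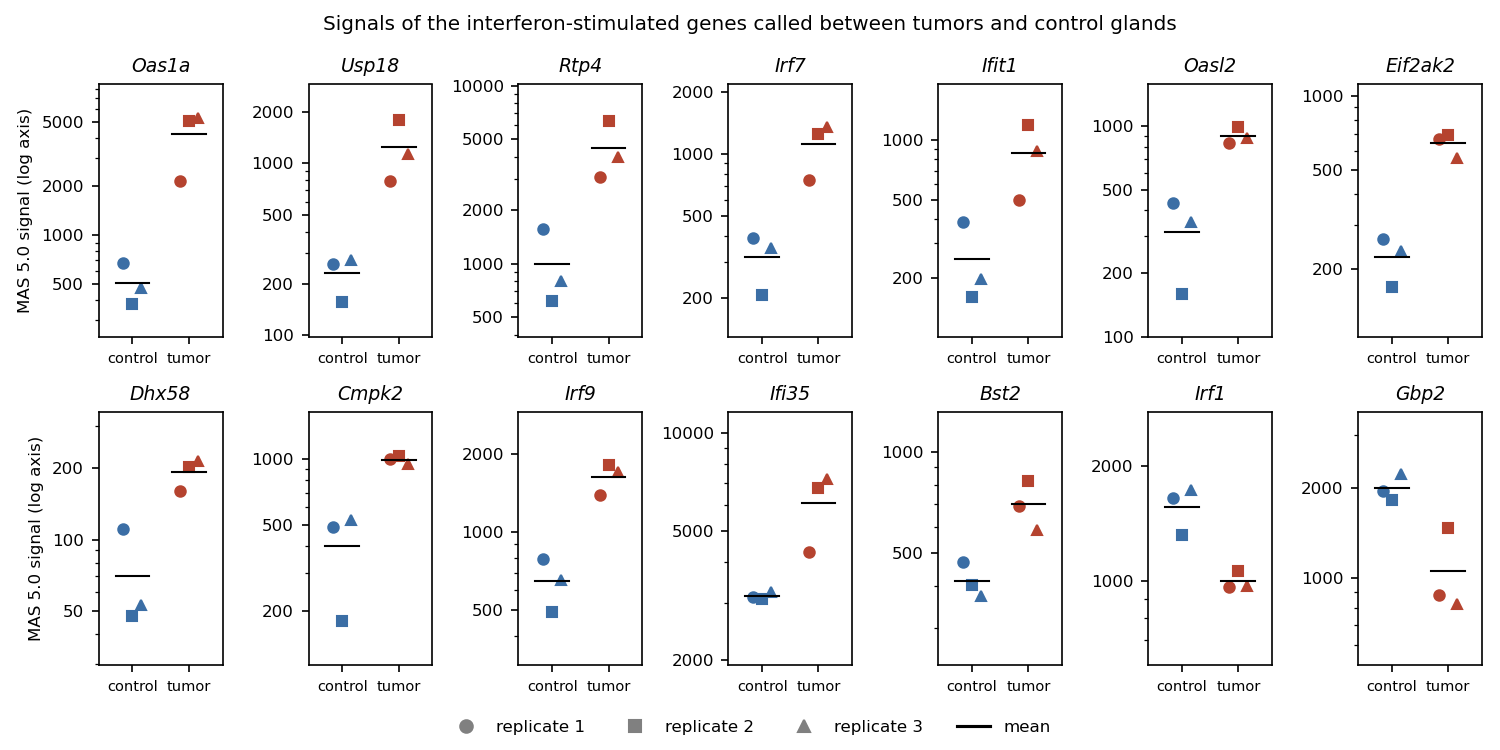
Signals of the 14 called members in each sample, on a log axis; blue marks control glands, red marks tumors, symbols give the replicate number and lines the arithmetic mean of 3 samples. Every panel shows groups that do not overlap, with 12 genes above and *Irf1* and *Gbp2* below the control glands.

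Of the 5 interferon-inducible GTPases, which gather on the membranes around microbes, 1 was called lower (16.8% of all genes) and 0 higher (16.3% of all genes). Limma gave 1 of the 5 an unadjusted p under 0.05. *Gbp2* was at 1956, 1829.9 and 2234 in the control glands and at 879, 1471 and 824 in the tumors. Every tumor lay below every control gland, and the difference was -0.97 (SE 0.27, adjusted p = 0.0319). A second probe set differed by -1.21 and also passed. The call was lost without control replicates 1, 2 or 3 (adjusted p = 0.0724, 0.0578 and 0.104) and tumor replicates 1 or 3 (0.0852 and 0.0905), at equal array medians (0.0791) and with no filter (0.0713).

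*Gbp3*, close to *Gbp2* on chromosome 3, lay against it, at 539, 456 and 673 in the control glands and at 853, 1517 and 595 in the tumors. The groups overlapped and the difference was 0.74 (adjusted p = 0.156). *Igtp*, also called Irgm3, differed by 0.37 (adjusted p = 0.318), and *Irgm1* by 0.11 (adjusted p = 0.81). *Iigp1*, at 3271, 2331 and 4341 in control glands against 1874, 4078 and 2035 in tumors, differed by -0.36 (adjusted p = 0.487). Its second probe set was at 0.10. In this class tumor replicate 2 was the highest tumor for 5 of 6 genes and control replicate 2 the lowest control gland for 6 of 6.

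**Figure D4:**
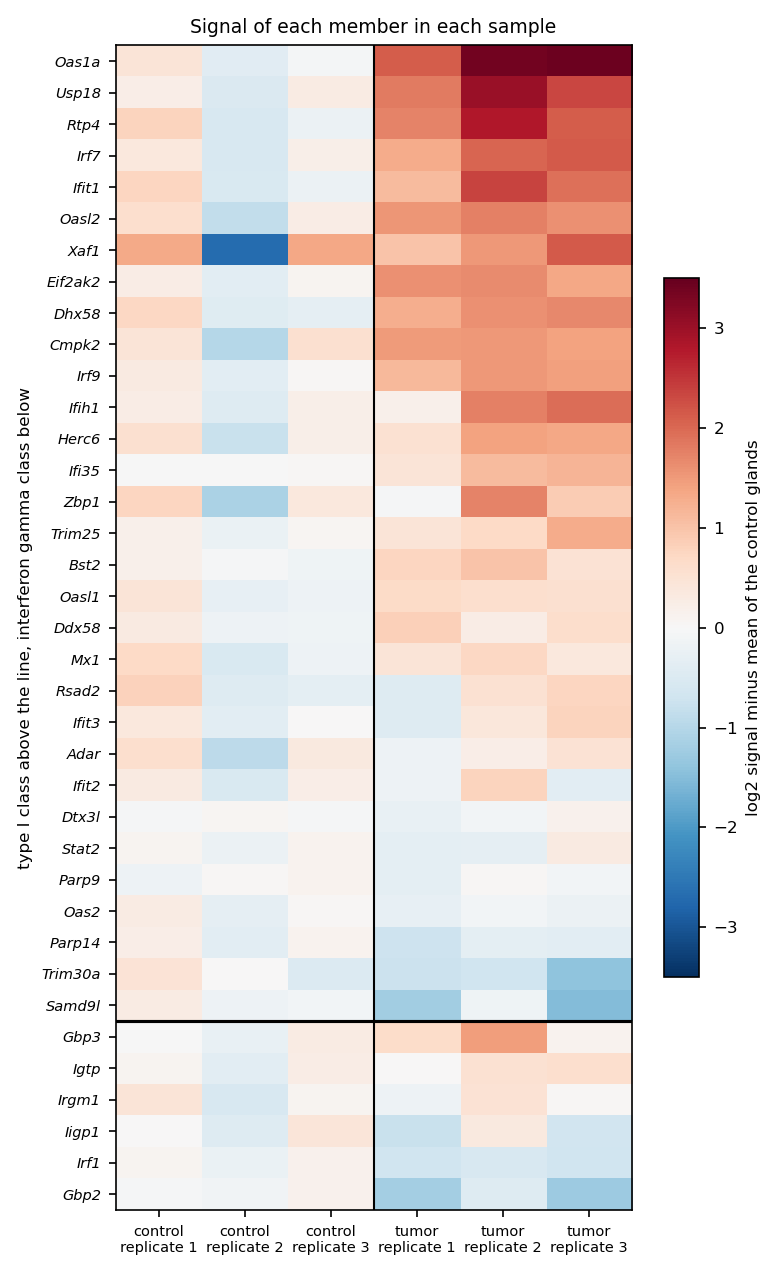
Signal of each tested member in each sample as log2 difference from the mean of the control glands, with the type I class above the line and the interferon gamma class below. Control replicate 2 is the lowest control gland for 33 of 37 genes and tumor replicate 1 the lowest tumor in 26 of 37.

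Among the genes that make and carry the interferon signal, more calls were lower than higher. No ligand was bright enough to be tested. *Ifnb1*, interferon beta, was at 60.5, 55.9 and 78.9 in the control glands and at 41.8, 41.5 and 93.7 in the tumors, and *Ifng*, interferon gamma, at 23.2, 27 and 23.6 in control glands against 1.8, 2.5 and 2.2 in tumors. The highest signal among the 6 ligands with a probe set was 93.7. Of 29 tested genes of the pathway, 1 was called higher (3.45%, against 16.3% of all genes), 7 lower (24.1%, against 16.8%) and 21 did not pass, with a median of -0.26.

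Both receptors had 1 chain that fell. *Ifnar2* was at 1773, 2116 and 1604 in the control glands and at 1116, 851 and 898 in the tumors, a difference of -0.94 (SE 0.22, adjusted p = 0.0164), lost at equal array medians (0.0725) and without tumor replicate 2 (0.0508). *Ifngr1* was at 1702, 1954 and 1907 in control glands against 858, 730 and 679 in tumors, a difference of -1.30 (SE 0.20, adjusted p = 0.00343). In both genes every tumor was below every control gland. Their partners *Ifnar1* and *Ifngr2* differed by -0.26 (adjusted p = 0.334) and -0.06 (adjusted p = 0.894), and the chains of the interferon lambda receptor, *Ifnlr1* and *Il10rb*, by 0.16 (adjusted p = 0.809) and -0.48 (adjusted p = 0.159).

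The kinases *Jak1*, *Jak2* and *Tyk2* did not pass, at 0.14, -0.20 and 0.29. Among the other factors, *Irf8*, a factor of myeloid and B cells, was at 1365, 573 and 606 in the control glands and at 254, 422 and 202 in the tumors, a difference of -1.49 (SE 0.42, adjusted p = 0.0315). *Irf5*, which acts below Toll-like receptors, differed by -0.96 (SE 0.24, adjusted p = 0.0213). *Nlrc5*, the activator of class I antigen presentation, differed by -0.91 (SE 0.25, adjusted p = 0.0285). In all 3 genes every tumor was below every control gland. Each of these calls was lost when single arrays were left out: *Irf8* without control replicates 1 or 3 (0.0683 and 0.0543) and tumor replicates 1 or 3 (0.0797 and 0.0942), *Irf5* without control replicates 1 or 3 (0.0678 and 0.0577) and tumor replicate 3 (0.0625), and *Nlrc5* without control replicates 1 or 3 (0.0853 and 0.0912) and tumor replicates 1 or 2 (0.0711 and 0.0577). *Stat3*, *Irf2* and *Irf3* did not pass, at -0.17, -0.44 and 0.72.

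Of 10 genes that induce interferon, *Ikbke*, a kinase that activates *Irf3* and *Irf7*, was called lower, at 379, 137 and 202 in the control glands and at 74.3, 47.3 and 39.2 in the tumors, a difference of -1.94 (SE 0.39, adjusted p = 0.0091). In tumor replicates 2 and 3 it lay under the floor of 50, which sets the size of that difference, and it was -2.08 with a floor of 16 and -1.13 with a floor of 100, called with both. The other 9 did not pass. Of the inhibitors, *Pias1*, a SUMO ligase, rose from 1342, 915 and 1218 in control glands to 3591, 2098 and 2898 in tumors, a difference of 1.29 (SE 0.28, adjusted p = 0.0115). It was lost without control replicate 2 and tumor replicate 1 together (0.0629). The phosphatase *Ptpn11* fell, with a difference of -1.06 (SE 0.21, adjusted p = 0.00866).

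Other interferon targets, 34 tested genes outside the 41, had 3 called higher (8.82%, against 16.3% of all genes), 7 lower (20.6%, against 16.8%), 24 not passing and a median of -0.23. Higher were *Phf11d* (difference 1.30), the ligase *Rnf213* (0.91) and the antibody receptor *Trim21* (0.71). *Phf11d* was lost without control replicates 2 or 3 (0.0636 and 0.0623) and tumor replicates 2 or 3 (0.0721 and 0.0614). *Rnf213* was lost without any 1 array but tumor replicate 2 (0.054 to 0.0731), and so was *Trim21* (0.0529 to 0.115).

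Lower were 7 genes, among them the chemokine *Cxcl9*, which interferon gamma induces, at 908, 500.2 and 1799 in the control glands and at 178, 236 and 23.9 in the tumors, a difference of -2.87 (SE 0.67, adjusted p = 0.016). Tumor replicate 3 lay under the floor, the difference was -3.22 with a floor of 16 and -2.53 with a floor of 100, and the call was lost without control replicate 3 (0.0532). *Ifitm1*, which blocks viral entry, was at 779, 422 and 487 in control glands against 116, 143 and 66.6 in tumors, a difference of -2.39 (SE 0.36, adjusted p = 0.00306). *Ciita*, the activator of class II antigen presentation, was at 234, 151 and 188 in control glands against 81.4, 88.2 and 78.9 in tumors, a difference of -1.19 (SE 0.23, adjusted p = 0.00793). The DNA-binding *Ifi204* and *Ifi203* differed by -2.00 and -1.24, the nuclease *Isg20* by -1.18 and *Helz2* by -1.15. *Ifi204* was at 359, 179 and 426 in control glands against 15.4, 172 and 48.6 in tumors, 2 of them under the floor, which sets the size of the difference: it was -2.56 with a floor of 16 and not called (0.0535), and -1.33 with a floor of 100, called. *Ifi204* was lost without control replicates 1 or 3 (0.0763 and 0.0954) and tumor replicates 1 or 3 (0.0837 and 0.0898), and *Helz2* without control replicates 1 or 3 (0.109 and 0.126) and tumor replicates 2 or 3 (0.118 and 0.081). *Cxcl9*, *Phf11d*, *Ifi204* and *Helz2* were also lost with no filter (0.0817, 0.0776, 0.115 and 0.110).

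Markers of immune cells, which also express interferon targets, were lower in the tumors where they passed. Over all genes, 16.8% were called lower. Of 5 general leukocyte markers 4 were called lower, with a median of -2.13 and a summed signal of 7440 to 25982 in control glands and 2240 to 3961 in tumors. *Ptprc*, the leukocyte antigen CD45, was at 8678, 1872 and 3698 in control glands against 863, 1146 and 558 in tumors, a difference of -2.25 (SE 0.55, adjusted p = 0.0193), lost without control replicate 3 (0.0546) or tumor replicate 3 (0.063). Macrophage markers were called lower in 3 of 7 cases, with a median of -1.39. Their sums were 18552 to 31419 in control glands and 6037 to 10502 in tumors. Only *Fcgr1* among the 7 had a positive difference, at 0.85 (adjusted p = 0.148), and it did not pass. *Cd68* was at 671, 1707 and 427 in control glands against 362, 336 and 168 in tumors, a difference of -1.53 (adjusted p = 0.0639). Of the B cell markers 2 of 3 were called lower, of the T cell markers 1 of 3, of the dendritic cell markers 1 of 2 and of the natural killer cell markers none of 3, for which limma gave 1 gene with an unadjusted p under 0.05. *Cd3e*, a defining T cell gene, and *Siglech*, a defining gene of plasmacytoid dendritic cells, were under the filter: in the control glands they lay at 282, 33 and 29 and at 153, 72.2 and 98.3, and in the tumors at 17.7, 19.1 and 21.6 and at 67.8, 21.3 and 86.

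Adipocyte markers were lower in 7 of 7 cases, fibroblast markers in 7 of 7 and endothelial markers in 6 of 6, with medians of -6.48, -3.36 and -2.40. Epithelial markers were higher in 6 of 6, with a median of 2.35 and summed signals of 9789 to 22345 in control glands and 64527 to 84889 in tumors. Basal markers were higher in 2 of 4, and the 4 skeletal muscle markers did not pass. Over all genes, 16.3% were called higher and 16.8% lower. The defining genes *Epcam*, *Adipoq* and *Pecam1* differed by 2.46, -6.85 and -2.67. The part of these cell types in the values of the interferon-stimulated genes was not tested.

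**Figure D5:**
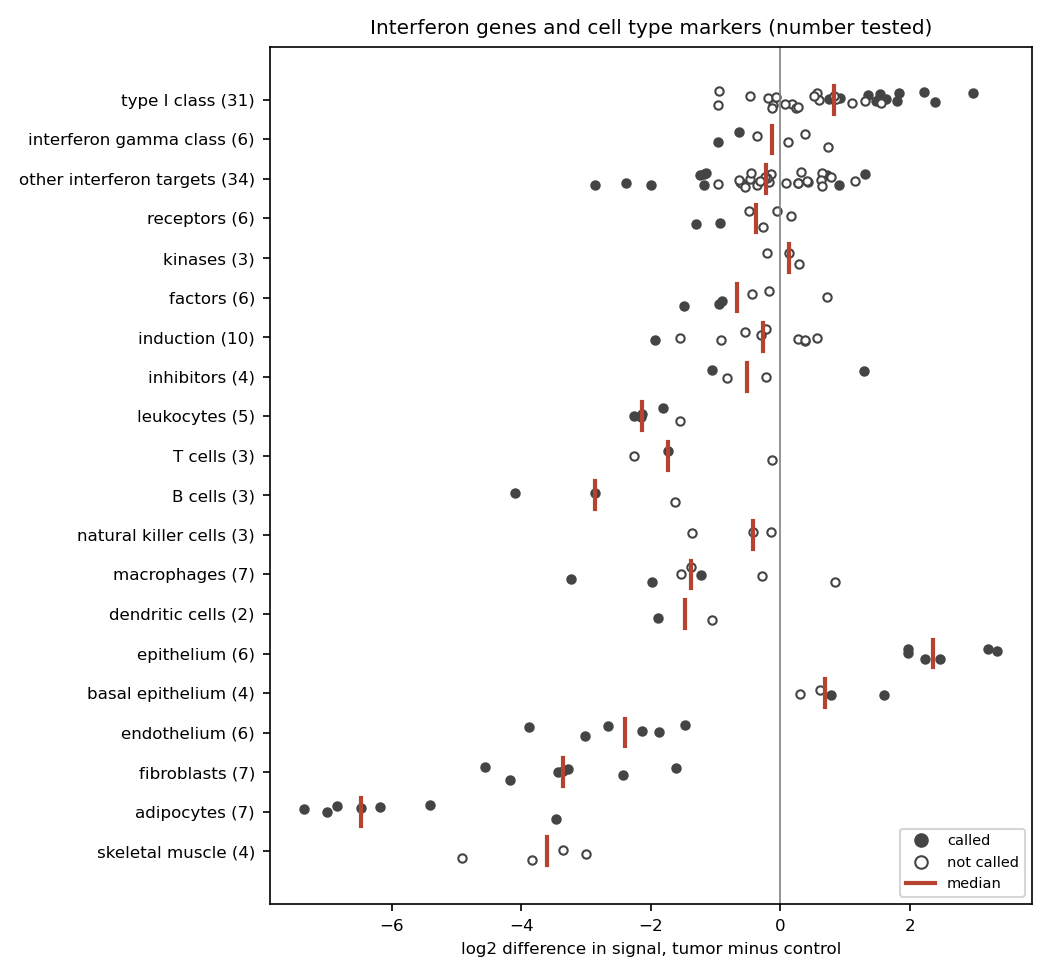
Difference in log2 signal, tumor minus control, of each tested gene in the interferon lists and in lists of cell type markers, with the number tested in parentheses; filled points passed the test and red lines give the median. The type I class has a median of 0.82, leukocyte markers one of -2.13 and epithelial markers one of 2.35.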

How the data were processed

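Total RNA of 6 samples, 3 per group, was read on Affymetrix mouse arrays, 1 array per sample. The authors computed the deposited intensity values with MAS 5.0 and scaled each array to a target of 500, and a trimmed mean of 500 was found on every array, with 2% of probe sets left out at each end. The scaling fixes the total signal of an array, so a rise in some genes lowers the signal of the others. Detection calls were not used here. Arrays have no read depth, and their number limits the precision: with 3 against 3, an exact permutation test of 1 gene cannot go below p = 0.1.

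Of 45101 probe sets, 64 were controls, 34945 had 1 gene symbol in the platform annotation, 932 had several and 9160 were unnamed here. Signals under 50 were set to 50 and log2 was taken. Probe sets at 100 or more on at least 3 arrays were kept (22492), and each of 12518 genes was represented by its brightest one on the mean log2 scale. Tests were 2-sided and came from limma (version 3.58.1, R version 4.3.3), as moderated statistics from lmFit and eBayes, with Benjamini-Hochberg adjustment over all genes and no fold limit. Motifs were searched with Python 3.11.15 in the RefSeq promoter table of GRCm38.p6.

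The members, the classes, the gene lists and the roles were chosen with earlier results of these data known. Per-sample signals were given for the 2 called members with the largest difference in each role, for each transcription factor, and for members that went against their role; the other members that are described in this way were added after their values were seen. Pathway receptors, kinases and factors were all named where tested. Of the other targets the rule asked for up to 6 called genes with the largest difference, and the rest of the 10 called were added after their values were seen. *Cd3e*, *Siglech*, *Ptprc*, *Cd68*, *Epcam*, *Adipoq* and *Pecam1* stood for their cell types. The alternatives changed 1 choice at a time, apart from the methods' t-test, which changed the scale, the statistic and the threshold together. Values were handled with a floor of 16 or 100, or with 50 added before the logarithm. Arrays were normalized by quantiles or to the same median. The filter was dropped or raised to 200. Probe sets with a letter before the final _at were left out, or all probe sets of a gene were averaged. That letter is mostly an a for the members, which marks several transcripts of 1 gene, so leaving out only those ending in _s_at or _x_at, whose probes are shared between genes, was added after the data were seen. The fit had a variance trend, or replicate numbers as a block, or lacked 1 array, with genes and probe sets as chosen on all 6. The methods' t-test asked for a statistic of at least 4.5 and a ratio of at least 2. Leaving out control replicate 2 and tumor replicate 1 together, and picking probe sets again without each array, were also added then.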

Additional observations from a re-analysis of the deposited data

How the results depend on the processing

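No called member changed direction in the 20 alternatives. Of the 12 genes called higher, *Irf9* and *Eif2ak2* were called in all of their alternatives, and *Oas1a*, *Usp18*, *Rtp4* and *Irf7* were lost only in the methods' t-test; the other 6 were lost in 2 or more. The members called higher numbered 17 at equal array medians (24.2% of all genes) and 14 with quantile normalization (19% of all genes). They numbered 13 with a floor of 100, with 50 added or with a variance trend (17.2%, 16.9% and 17.4% of all genes). With no filter on low signals there were 7 (9.36% of all genes). Without probe sets with a letter before the final _at there were also 7 (14.7% of all genes), and 9 of the 37 genes had no probe set left. Without those ending in _s_at or _x_at there were 11 (16.1% of all genes), and all 37 kept one. The methods' t-test gave 5 (5.47% of all genes), of which 0 passed after Benjamini-Hochberg, where 140 of all genes did. The percentages are the shares of all genes called higher in the same setting. With 1 array left out the members called higher numbered 7 to 12 (10.1% to 13.2% of all genes). They numbered 6 to 13 where probe sets were also picked again, and the share of all genes was not counted there. Picking again gave *Eif2ak2*, *Adar*, *Herc6* or *Xaf1* another probe set and lost *Eif2ak2* without tumor replicate 2. Members called lower numbered 0 to 2 with 1 array left out (0 to 1 in the interferon gamma class). All members called higher were of the type I class, which held 31 of the 37 genes, under each of these settings. The settings use the same arrays, and the classes were chosen with earlier results of these data known. The difference between the classes was not tested. Members called lower numbered 1 with a floor of 16 (15.9% of all genes called lower) and with no filter (8.6%). They also numbered 1 without probe sets with a letter before the final _at (16.8%) and with the replicate number as a block (14.9%). There were 0 at equal array medians (13.3%) and in the methods' t-test (7.35%). Without control replicate 2 and tumor replicate 1 together there were 0 as well (14.5%). The block left 10 members called higher (13% of all genes) and 0 called lower in the interferon gamma class. Same-numbered samples deviated together with correlations of -0.22, 0.02 and 0.04, so the numbers were not taken as pairs. The cause of these shifts was not tested. Equal array medians moved the median of all genes from 0.07 to 0.31, and the median of the members from 0.60 to 0.84.

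Genes that did not pass changed sign as follows. At equal array medians *Stat2* was at 0.12, *Oas2* at 0.041, *Parp9* at 0.10 and *Dtx3l* at 0.17. *Stat2* was at 0.079 with quantile normalization and 0.0079 with the mean over probe sets, and *Iigp1* at 0.10 without probe sets with a letter before the final _at. With 1 array left out *Adar* ranged from -0.27 to 0.47, *Ifit2* from -0.28 to 0.30, *Ifit3* from -0.032 to 0.59, *Dtx3l* from -0.17 to 0.033 and *Irgm1* from -0.16 to 0.34. Without control replicate 2 and tumor replicate 1 together *Adar* was at -0.094, *Ifit2* at -0.060, *Dtx3l* at 0.072 and *Irgm1* at -0.012.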
